A study of Auricularia auricula-judae with 2 samples.

Results

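Genes for pre-mRNA splicing and mRNA processing were followed in the wood-ear mushroom Auricularia auricula-judae, in its fruit bodies. They were chosen by the text of their descriptions, which name splicing, pre-mRNA or mRNA processing, the spliceosome, small nuclear ribonucleoproteins, Sm-like proteins, U6 snRNA, cleavage and polyadenylation, mRNA export, decapping or nonsense-mediated decay, and which do not name tRNA or rRNA. The rule matched 315 of 57717 assembled transcripts, which belong to 278 of 43428 assembled genes. A description is that of the closest Swiss-Prot entry, often from a distant organism, and a symbol here stands for that match.

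The irradiated group is 1 library from fruit bodies whose mycelium had received 200 Gy of gamma radiation after 14 days on agar at 25 °C. The control group is 1 library from fruit bodies of mycelium labelled as non-treated and otherwise handled in the same way. The treatment field of both samples names the 200 Gy dose, so the control was told from the irradiated sample by its title and its own treatment label, and every ratio below rests on these. Both were then kept for 30 days at 25 °C on sawdust with rice bran, and fruit bodies were grown at 18 °C and 90% humidity. RNA came from homogenised fruit bodies grown after the exposure, the sources used here do not say how many fruit bodies made up a library, and the fruit body label was not checked against marker genes. Each group has 1 library, so differences below have no replicate check, and no p-value was computed. In such bulk tissue, fewer cells of a type and less RNA per cell cannot be told apart.

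Splicing removes introns from nuclear transcripts. The spliceosome that does so is built anew on each intron, from small nuclear ribonucleoproteins (snRNPs, each a small RNA with a ring of Sm or LSm proteins and its own proteins), from the Prp19 complex that joins them, and from helicases that drive each rearrangement. The spliced transcript is cut and given its poly(A) tail, carried through the nuclear pore and at the end of its life decapped and degraded. Mushroom-forming fungi have intron-rich genes, so most of their messages need this machinery.

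Levels are given in FPKM, fragments per kilobase of transcript scaled to library size, summed over the isoforms of an assembled gene. Differences are log2 ratios of FPKM + 1, irradiated over control, so a positive value is higher in the irradiated library. Depth is given as scaled reads, the sum of a pair of scaled values that the authors' deposited table lists for each transcript. A gene was called measured from 100 scaled reads over both libraries, and higher or lower from a 2-fold ratio, a log2 ratio of 1. Of the 278 genes, 66 (23.7%) were measured, against 8249 measured genes (19.0%) among all 43428. The FPKM values summed to 983895 in the irradiated library and 970111 in the control library, and the 278 genes held 0.989% of the irradiated sum and 0.907% of the control sum.

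Most measured splicing and mRNA processing genes had close levels in the irradiated and control libraries. In the irradiated library 3 of the 66 stood 2-fold or more above control, as did 9.32% of all measured genes. A further 3 stood 2-fold or more below control, as did 8.68% of all measured genes. The other 60 (90.9%) were within 2-fold, against 82.0% of all measured genes. Their log2 ratios ran from -1.43 to 1.28, with quartiles of -0.17 and 0.48, while the quartiles of all measured genes were -0.37 and 0.56. The median was 0.13 over the 66 genes and 0.10 over all measured genes. Relative to that overall shift of 0.10 the median of the 66 was 0.03, and 35 lay above the shift and 31 below it. After centring on the shift, 2 of the 66 genes were higher by 2-fold or more and 3 lower, and over all measured genes the counts were 598 higher and 853 lower, against 769 higher and 716 lower without centring.

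The measured members were abundant and deeply read. Their median level was 116 FPKM in the irradiated library and 101 FPKM in the control library, against 37.1 FPKM (irradiated) and 34.5 FPKM (control) over all measured genes. Their median depth was 2305 scaled reads, against 621 over all measured genes. The counts were therefore also taken by depth. Of the 45 members with 1000 or more scaled reads, 1 was at least 2-fold higher (all such genes 6.53%) and 1 at least 2-fold lower (all such genes 7.13%). The 21 members with fewer than 1000 scaled reads held the other 2 higher and 2 lower genes, and 81.0% of them were within 2-fold, against 79.3% of all genes in that depth range. Whether the 66 genes differ from other genes in spread was not tested.

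**Figure D1:**
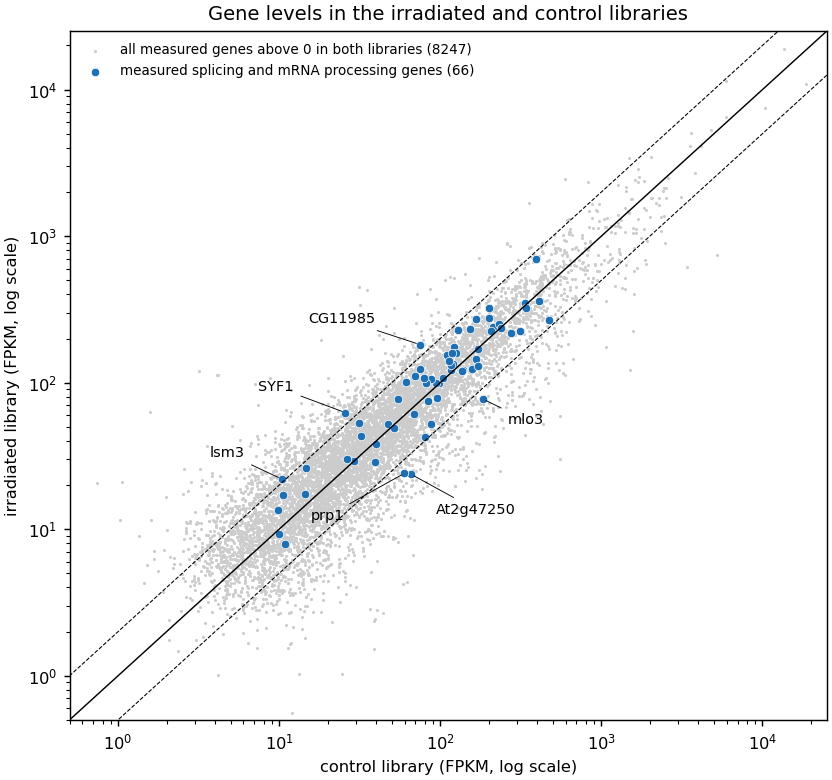
Level of each measured gene in the control library (horizontal axis, FPKM, log scale) and in the irradiated library (vertical axis, FPKM, log scale), with isoforms summed. Blue points are the 66 measured splicing and mRNA processing genes, grey points are all measured genes above 0 in both libraries, the solid line marks equal levels and the dashed lines a 2-fold ratio; the 6 labelled genes are those with a log2 ratio of FPKM + 1 of at least 1 in size.

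Those 2-fold or more above control were a subunit of the U2 snRNP, a factor of the Prp19 complex and an LSm protein gene. Splicing factor 3B subunit 5 (CG11985, TBIU018533), a small subunit of the U2 particle that holds the branch site, had 182 FPKM in the irradiated library and 74.6 FPKM in the control library, a log2 ratio of 1.28. The scaled values of the authors' deposited table put its log2 ratio at 1.21, and the 95% counting interval around it was 1.11 to 1.31. This interval and those below were computed here, as exact Clopper-Pearson intervals on the scaled values, and are not the authors' own. They cover counting error only and leave out any difference between fruit bodies. SYF1 (TBIU058164), a scaffold protein of the Prp19 complex, had 62.5 FPKM in the irradiated library and 25.6 FPKM in the control library, a log2 ratio of 1.25. From the authors' deposited table its interval was 0.99 to 1.44, which reached just within 2-fold. An LSm3 gene (lsm3, TBIU005307), whose product belongs to the ring on U6 snRNA, had 21.99 FPKM in the irradiated library and 10.4 FPKM in the control library, a log2 ratio of 1.02 from 154 scaled reads. From the authors' deposited table its interval was 0.89 to 1.96, which also reached within 2-fold. After centring on the overall shift this LSm3 gene was within 2-fold, and only its isoform described as LSm3 was present in the irradiated library.

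The genes at least 2-fold lower were an export adaptor and 2 thinly read genes. The mRNA export protein mlo3 (TBIU046308), known in fission yeast as an adaptor that hands spliced mRNA to the export receptor, had 77.4 FPKM in the irradiated library and 183 FPKM in the control library. Its log2 ratio was -1.23, and the interval computed from the scaled values of the authors' deposited table was -1.42 to -1.22. A gene with a plant match to a probable splicing helicase (At2g47250, TBIU029508) had 23.7 FPKM in the irradiated library and 65.7 FPKM in the control library, a log2 ratio of -1.43. The splicing factor prp1 (TBIU004232), a bridge between the U4/U6 and U5 particles in fission yeast, had 24.1 FPKM in the irradiated library and 59.8 FPKM in the control library, a log2 ratio of -1.28. These last 2 genes rested on 189 and 106 scaled reads and gave 2.11 and 1.27 scaled reads per FPKM, against a median of 10.1 over all measured genes. A low value of that ratio goes with a short assembled transcript. From the authors' deposited table the intervals were -2.01 to -1.04 for At2g47250 and -1.95 to -0.67 for prp1, so the interval of prp1 reached within 2-fold. The deeper isoform of prp1, taken alone, had a log2 ratio of -0.99.

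**Figure D2:**
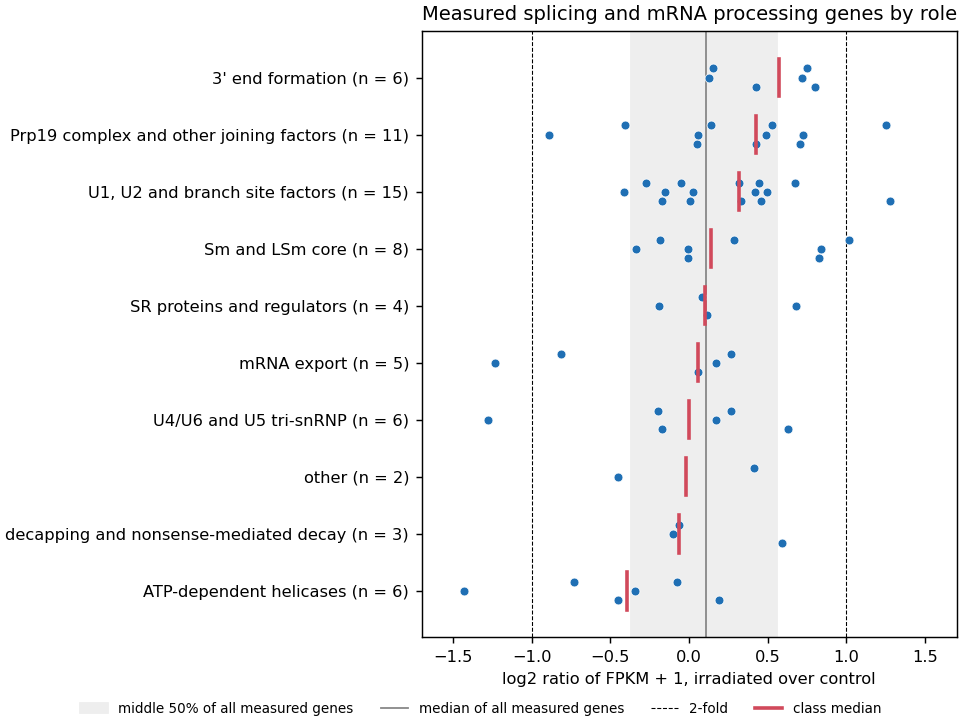
Log2 ratio of FPKM + 1, irradiated over control (horizontal axis), for the 66 measured genes, 1 point per gene, in rows by role. Red bars are class medians, the grey band and line are the middle 50% and the median of all measured genes, and dashed lines mark 2-fold; the class medians run from -0.40 for the helicases to 0.57 for 3' end formation.

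Genes for proteins that recognise intron ends as parts of U1 and U2 snRNP lay on both sides of their control levels, between -0.41 and the 1.28 of splicing factor 3B subunit 5 on the log2 scale. Of 15 measured genes, 10 were above and 5 below equal levels, with a median log2 ratio of 0.32. Relative to the overall shift 8 were above and 7 below. The U1 protein usp102 (TBIU007819) had 275 FPKM in the irradiated library and 199.9 FPKM in the control library, a log2 ratio of 0.46. The prp40 protein (TBIU023888), which links U1 to the branch site, had 155 FPKM in the irradiated library and 109 FPKM in the control library. The U1 C protein (CC1G_01380, TBIU021333), which steadies the pairing of U1 with the start of the intron, had 38.3 FPKM in the irradiated library and 39.7 FPKM in the control library.

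Within U2, the other subunits lay nearer to equal than splicing factor 3B subunit 5. SF3B1 (TBIU019011), the large scaffold that clamps the branch site, had 99.99 FPKM in the irradiated library and 98.4 FPKM in the control library, a log2 ratio of 0.02 from 6380 scaled reads. Sf3a1 (TBIU022953) had 122 FPKM in the irradiated library and 138 FPKM in the control library. The other SF3A subunit measured, sap61 (TBIU018905), had 159 FPKM in the irradiated library and 119 FPKM in the control library, a log2 ratio of 0.42. The gene for U2 B'' (TBIU010012), whose minor isoform is described as U1 A, had 141 FPKM in the irradiated library and 113 FPKM in the control library. The splicing factor smndc1 (TBIU012746), which helps the tri-snRNP to dock, was among the lowest of this class, with 78.3 FPKM in the irradiated library and 94.9 FPKM in the control library.

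The Sm and LSm ring proteins did not share a direction: of 8 measured genes, 4 were above and 4 below equal levels, with a median of 0.14. SmD1 (TBIU003862) had 698 FPKM in the irradiated library and 391 FPKM in the control library, a log2 ratio of 0.84, and was the most abundant of the 66 genes by mean FPKM. Its ring partner SmD3 (snrpd3, TBIU005972) had 218 FPKM in the irradiated library and 276 FPKM in the control library, a log2 ratio of -0.34. The third measured ring protein, SmB (snr-2, TBIU007300), had 171 FPKM in the irradiated library and 172 FPKM in the control library. Its scaled values in the authors' deposited table gave a log2 ratio of -0.20, with an interval of -0.32 to -0.09. The proteins of a ring assemble in equal numbers, and here SmD1 and SmD3 had ratios on opposite sides of 0. SmD1 gave 1.57 scaled reads per FPKM, the shortest transcript measure of these ring genes. Among the LSm proteins, Lsm2 (TBIU010145) had 120.1 FPKM in the irradiated library and 137 FPKM in the control library, and LSM4 (TBIU003527) had 99.8 FPKM in the irradiated library and 81.6 FPKM in the control library. The LSm1 gene (lsm1, TBIU000229) stood higher, with 229.6 FPKM in the irradiated library and 129 FPKM in the control library, a log2 ratio of 0.82. LSm1 takes the place of a U6 ring protein in a cytoplasmic ring that promotes decapping.

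Genes of the U4/U6 and U5 tri-snRNP, the particle that brings the catalytic RNA, were split evenly. Of 6 measured genes 3 were above and 3 below equal levels, and their median log2 ratio was -0.00. The only one with more than 400 scaled reads, prp3 (TBIU011783), had 145 FPKM in the irradiated library and 166 FPKM in the control library, a log2 ratio of -0.20. The gene matched to spp42 (TBIU028992), the fission yeast form of the large catalytic-centre protein Prp8, had 29.9 FPKM in the irradiated library and 26.5 FPKM in the control library, from 155 scaled reads. The prp31 gene (TBIU068352) had 74.7 FPKM in the irradiated library and 84.3 FPKM in the control library. At the upper end the U5 protein SNRNP40 (TBIU006984) had 17.0 FPKM in the irradiated library and 10.6 FPKM in the control library, and snrnp27 (TBIU011684) had 17.5 FPKM in the irradiated library and 14.4 FPKM in the control library.

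Helicases were the class that lay lowest. Of 6 measured genes 5 were below equal levels, also relative to the overall shift, 1 of them at least 2-fold, and the median log2 ratio was -0.40. The lariat-disassembly helicase prp43 (TBIU019999) had 227 FPKM in the irradiated library and 311 FPKM in the control library, a log2 ratio of -0.45 from 10590 scaled reads. The mRNA-release helicase prp22 (TBIU020512) had 125 FPKM in the irradiated library and 158 FPKM in the control library, a log2 ratio of -0.34. From the authors' deposited table the intervals were -0.60 to -0.49 for prp43 and -0.48 to -0.36 for prp22. The U5 helicase matched to the fly gene l(3)72Ab (TBIU067673), which unwinds U4 from U6, had a log2 ratio of -0.73. Its level was 52.6 FPKM in the irradiated library and 88.1 FPKM in the control library. It rested on 488 scaled reads and gave 3.47 scaled reads per FPKM, against a median of 10.1 over all measured genes. From the authors' deposited table its interval was -1.09 to -0.54, which reached 2-fold. The helicases of early assembly were nearer to equal by FPKM: PRP28 (TBIU059733), which displaces U1, had 323 FPKM in the irradiated library and 339.99 FPKM in the control library. Its log2 ratio was -0.08, while its scaled values in the authors' deposited table gave -0.25, with an interval of -0.38 to -0.13. PRP28 isoform TBIU024988, with 45.8% of the gene's scaled reads, had a log2 ratio of -0.43. PRP5 (TBIU024099), which prepares U2 for the branch site, had 133 FPKM in the irradiated library and 117 FPKM in the control library, a log2 ratio of 0.19.

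The Prp19 complex and other factors that join the assembled spliceosome were mostly above equal levels, 9 of 11 measured genes, with a median log2 ratio of 0.42. Relative to the overall shift 7 were above and 4 below. Besides the SYF1 genes, Cdc40 (TBIU057343), a factor of the second step of splicing, had 271 FPKM in the irradiated library and 166 FPKM in the control library, a log2 ratio of 0.70. The other factor of that step, PRPF18 (TBIU012995), had 77.1 FPKM in the irradiated library and 54.7 FPKM in the control library, a log2 ratio of 0.49. PRP46 (TBIU014082), a core protein of the complex, had 174 FPKM in the irradiated library and 121 FPKM in the control library, a log2 ratio of 0.52. CWC22 (TBIU011160), which also loads the exon junction complex in animals, had 151 FPKM in the irradiated library and 112 FPKM in the control library, a log2 ratio of 0.42 from 10330 scaled reads.

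Other joining factors were level or lower. The syf2 gene (TBIU007572) had 348 FPKM in the irradiated library and 334 FPKM in the control library. SPF27 (Bcas2, TBIU009157) had 227 FPKM in the irradiated library and 205 FPKM in the control library, and cwf19 (TBIU024938) had 108 FPKM in the irradiated library and 104 FPKM in the control library. CWC24 (TBIU019842), a zinc-finger protein that binds near the start of the intron before the first cut, had 42.8 FPKM in the irradiated library and 80.2 FPKM in the control library. Its log2 ratio was -0.89, and both of its isoforms lay between -0.93 and -0.82. The interval computed from the scaled values of the authors' deposited table was -1.09 to -0.88, which reached 2-fold. PRP45 (TBIU003180) had 129.5 FPKM in the irradiated library and 172 FPKM in the control library, a log2 ratio of -0.41.

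The SR proteins, which bind exons and influence which splice sites are used, were all within 2-fold and all abundant. SR45a (SR45A, TBIU010322) had 359 FPKM in the irradiated library and 409 FPKM in the control library, a log2 ratio of -0.19. RS2Z33 (TBIU011030) had 252 FPKM in the irradiated library and 232 FPKM in the control library. The srp2 gene (TBIU003465) stood apart from the other 3, with 323 FPKM in the irradiated library and 201 FPKM in the control library, a log2 ratio of 0.68 from 7230 scaled reads. The srp1 gene (TBIU010884) had 99.5 FPKM in the irradiated library and 94.0 FPKM in the control library.

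All 6 measured genes of 3' end formation were above equal levels, also relative to the overall shift and by the scaled values, and none reached 2-fold. Their median log2 ratio was 0.57, and 3 of them lay between 0.72 and 0.80. CPSF100 (TBIU024844), a subunit of the complex that cuts the transcript, had 26.1 FPKM in the irradiated library and 14.6 FPKM in the control library, a log2 ratio of 0.80. CLP1 (TBIU017994), a cleavage factor with a kinase fold, had 53.4 FPKM in the irradiated library and 31.4 FPKM in the control library, a log2 ratio of 0.75. The fip1 gene (TBIU010800), whose product tethers poly(A) polymerase to that complex, had 124 FPKM in the irradiated library and 75.01 FPKM in the control library, a log2 ratio of 0.72. The scaffold subunit pta1 (TBIU011909) had 43.6 FPKM in the irradiated library and 32.2 FPKM in the control library. The 2 nearest to equal were the RNA-binding subunits Cstf2 (TBIU009444), with 133 FPKM in the irradiated library and 119.8 FPKM in the control library, and cpsf6 (TBIU019040), with 52.1 FPKM in the irradiated library and 47.7 FPKM in the control library. From the authors' deposited table the intervals of Cstf2 and cpsf6, -0.04 to 0.18 and -0.06 to 0.16, covered 0. Symplekin (SYMPK, TBIU016456) was not chosen by the text rule and is counted among the neighbouring genes below. It had 35.45 FPKM in the irradiated library and 33.57 FPKM in the control library. Its log2 ratio of 0.08 was below the overall shift, and its scaled values gave -0.00.

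Of 5 measured mRNA export genes, both mlo3 genes were low and the other 3 were close to equal. The export receptor mex67 (TBIU015324), which carries mRNA through the pore, had 121 FPKM in the irradiated library and 117 FPKM in the control library, a log2 ratio of 0.05. The ATPase elf1 (TBIU015238) had 239 FPKM in the irradiated library and 212 FPKM in the control library, from 13303 scaled reads, the most of the 66 genes. SUS1 (TBIU024705), a small protein that couples transcription to export, had 106 FPKM in the irradiated library and 88.1 FPKM in the control library. The receptor and its adaptor therefore had different ratios, 0.05 for mex67 and -0.81 and -1.23 for the mlo3 genes.

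In decapping and nonsense-mediated decay 3 genes were measured. The decapping enzyme dcp2 (TBIU015693) had 231 FPKM in the irradiated library and 154 FPKM in the control library, a log2 ratio of 0.59. The decay helicase UPF1 (TBIU015621) had 9.29 FPKM in the irradiated library and 10.03 FPKM in the control library, and upf3 (TBIU020765) had 48.9 FPKM in the irradiated library and 51.3 FPKM in the control library. The 2 genes left without a class were MRS4 (TBIU014308) and USB1 (TBIU017387), which trims the end of U6 snRNA. USB1 had 13.5 FPKM in the irradiated library and 9.88 FPKM in the control library, a log2 ratio of 0.41, while its scaled values in the authors' deposited table gave 0.07. MRS4 had 28.6 FPKM in the irradiated library and 39.5 FPKM in the control library. It is a mitochondrial carrier by family, and the isoform that carries the splicing description held 1.697% of the scaled reads of its gene, so it is a member by text only.

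Several proteins were represented by more than 1 measured gene, and such genes may be alleles, copies or pieces of 1 transcript, which was not tested. The 66 genes fell into 61 assembly components, of which 5 held a pair of measured genes. Both SYF1 genes, which share a component, were higher: the deeper one (TBIU018320) had 101 FPKM in the irradiated library and 61.2 FPKM in the control library, a log2 ratio of 0.72. Both genes of splicing factor 3B subunit 5, from different components, were also higher, the second (TBIU003959) with 111 FPKM in the irradiated library and 69.4 FPKM in the control library, a log2 ratio of 0.67. Both mlo3 genes, which also share a component, were lower, the deeper one (TBIU046307) with 267 FPKM in the irradiated library and 471 FPKM in the control library, a log2 ratio of -0.81. Each of these 3 proteins had 1 direction over both of its genes, and only the genes of splicing factor 3B subunit 5 came from separate components.

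For LSm3 and U2 A' the paired genes disagreed. The abundant LSm3 gene (TBIU005306) had 236 FPKM in the irradiated library and 237 FPKM in the control library, a log2 ratio of -0.01, beside 1.02 for the scarce one. The abundant U2 A' gene (lea1, TBIU007457) had 159 FPKM in the irradiated library and 126 FPKM in the control library, a log2 ratio of 0.33. The scarce one (TBIU055089) had 7.89 FPKM in the irradiated library and 10.8 FPKM in the control library, a log2 ratio of -0.41. The genes of U2AF, which binds the pyrimidine tract before the intron end, had log2 ratios of -0.15 (U2AF2, TBIU003514), 0.01 (U2af50, TBIU053084) and 0.44 (U2af50, TBIU058770). The last of these rested on 132 scaled reads. With 1 gene kept per component, the one with the most scaled reads, 1 of 61 genes was at least 2-fold higher and 2 were at least 2-fold lower. Over all measured genes, which were not reduced in this way, 9.32% were higher and 8.68% lower.

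**Figure D3:**
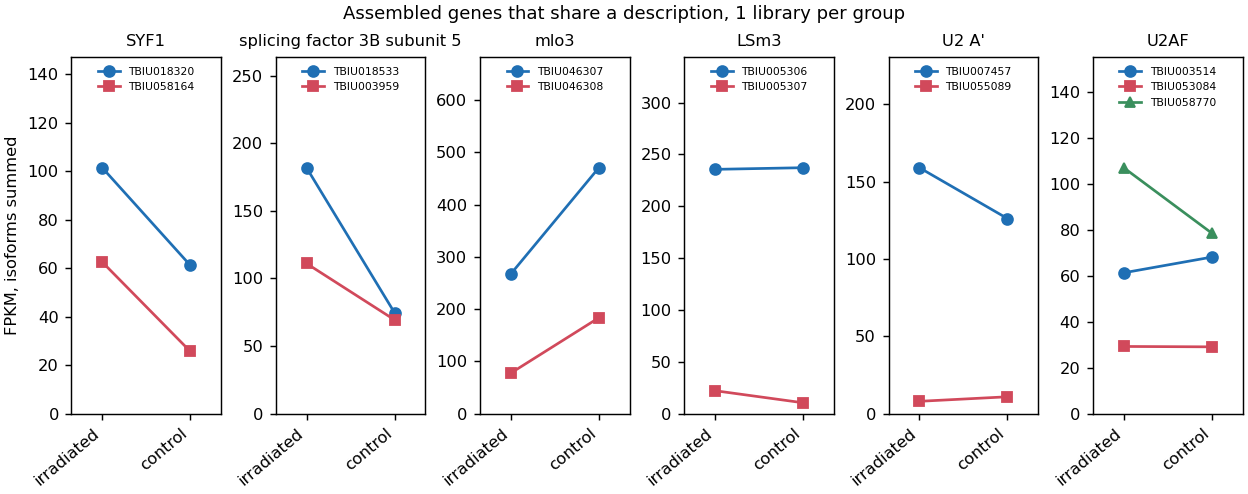
Level of measured genes that share a protein (vertical axes, FPKM with isoforms summed, each from 0), with the irradiated library left and the control library right and 1 line per gene. Lines of SYF1, splicing factor 3B subunit 5 and mlo3 run the same way within each panel, and those of LSm3, U2 A' and U2AF do not.

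Isoforms of 1 gene often had different ratios. Of the 66 genes 26 had more than 1 assembled isoform, and 21 had 2 or more isoforms with at least 100 scaled reads each. The gap between the highest and lowest log2 ratio of those isoforms had a median of 0.72 over the 21 genes and of 0.74 over 2250 such genes in all. It was 1 or more in 7 of the 21 (33.3%) and in 37.1% of all such genes. Isoforms lay on both sides of 0 in 13 of the 21 (61.9%) and in 42.3% of all such genes. Some of the 13 crossed 0 only slightly, with a highest isoform log2 ratio of 0.002 in SR45a and 0.02 in PRP28. Whether the 21 genes differ from all such genes in this was not tested. The sources used here do not say how reads were divided between isoforms, and short assembled isoforms may not be real transcripts.

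The SR protein gene SR45a had one of the wider gaps. Its main isoform (TBIU010322) had 331.4 FPKM in the irradiated library and 330.9 FPKM in the control library, a log2 ratio of 0.00. Its minor isoform (TBIU010323) had 27.4 FPKM in the irradiated library and 78.1 FPKM in the control library, a log2 ratio of -1.48, and made up 7.62% of the gene's FPKM in the irradiated library and 19.1% in the control library. The cleavage factor CLP1 had 9 isoforms. Its deepest one (TBIU017994) had 23.3 FPKM in the irradiated library and 7.34 FPKM in the control library, a log2 ratio of 1.54, and its share of the gene's FPKM was 43.7% in the irradiated library and 23.4% in the control library. The next (TBIU017995) had 14.4 FPKM in the irradiated library and 9.18 FPKM in the control library.

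In the cleavage factor cpsf6 an isoform (TBIU019041) had 6.49 FPKM in the irradiated library and 12.8 FPKM in the control library, a log2 ratio of -0.88, while the other 2 had log2 ratios of 0.23 and 0.55. In fip1 the isoform with 92.8% of the scaled reads had a log2 ratio of 0.81 and the minor one -0.40. In the export factor elf1, with 6 isoforms, the deepest (TBIU015238) had 136 FPKM in the irradiated library and 105 FPKM in the control library. Isoform TBIU015242 of the same gene had 19.4 FPKM in the irradiated library and 30.5 FPKM in the control library. USB1 had the widest gap, 1.88, between its described isoform at 0.95 and an undescribed one at -0.93.

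**Figure D4:**
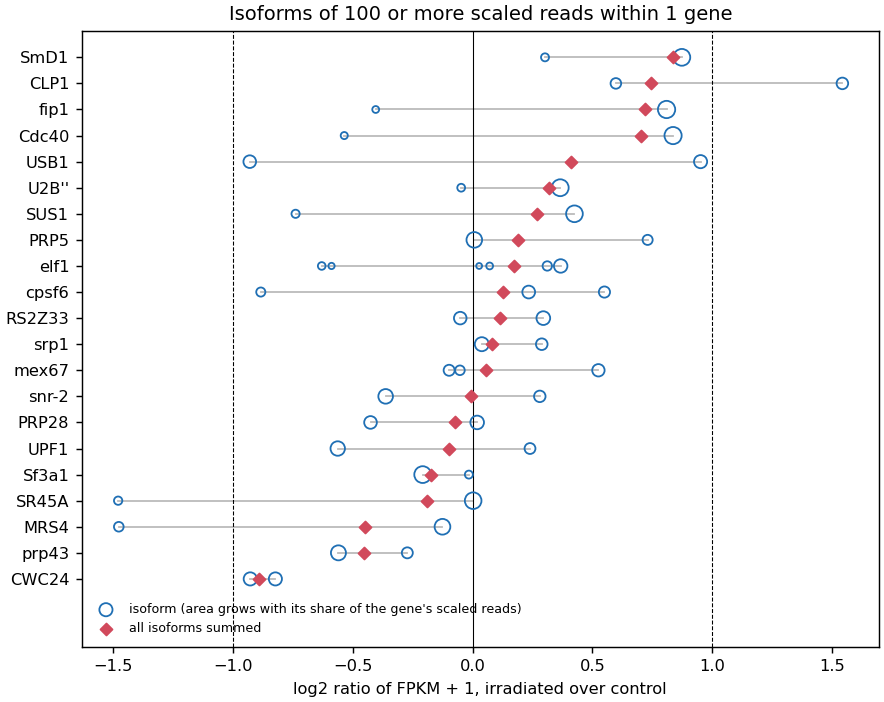
Log2 ratio of FPKM + 1, irradiated over control (horizontal axis), of isoforms with 100 or more scaled reads (open circles, area growing with the share of the gene's scaled reads) and of all isoforms summed (red diamonds), for the 21 measured genes with at least 2 such isoforms. Isoforms of 13 genes lie on both sides of 0, and the widest gap, 1.88, is that of USB1.

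Counting error was small for most of these genes. From the authors' deposited table, the 95% counting interval of the scaled values lay above 0 for 28 of the 66 genes and for 38.6% of all measured genes. It lay below 0 for 19 of the 66 genes and for 34.8% of all measured genes, and it covered 0 for the other 19. The median half-width of these intervals was 0.12 on the log2 scale. For genes with 1 isoform, FPKM gave a higher log2 ratio than the scaled values did, with a median gap of 0.07. The authors' deposited table also gives a p-value for each transcript, from a test not named in the sources used here. Among 85 transcripts that matched the rule and had 100 or more scaled reads, 0 had such a p-value of 0.05 or less in the authors' deposited table, and the lowest was 0.43, for the minor SR45a isoform. Over all 11289 transcripts of that depth 195 (1.73%) did, and every q-value in the authors' deposited table was 1.

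The 212 genes below 100 scaled reads were thinly read. Their median was 2.90 scaled reads, 203 had under 10, and together they held 0.486% of the scaled reads of the 278 genes. The highest below the minimum had 81.5 scaled reads and the lowest above it 106.48. Of the 212, 95 (44.8%) were listed at 0 in the control library only, 65 (30.7%) at 0 in the irradiated library only, and 52 were above 0 in both. Among all 35179 genes of that depth the shares were 35.03% and 28.5%. Descriptions recur among them: 8 genes were described as pre-mRNA-processing-splicing factor 8, the catalytic-centre protein, with 36.3 FPKM in the irradiated library and 60.1 FPKM in the control library in sum. The 116 kDa U5 protein, the GTPase of that particle, had 4 such genes, with 21.9 FPKM in the irradiated library and 2.45 FPKM in the control library in sum, from 16.8 scaled reads in all. No ratio is drawn from these.

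Genes next to these in the life of an mRNA, taken from a list of capping, tailing, export, surveillance and decay factors, were counted in the same way. Of 199 such genes 45 were measured. A 2-fold ratio or more was seen upward in 3 (6.67%, all measured genes 9.32%) and downward in 2 (4.44%, all measured genes 8.68%). The other 40 were within 2-fold, and the median log2 ratio was 0.19, against 0.10 over all measured genes. The 6 genes described as poly(A) polymerases or poly(A) RNA polymerases were all above equal levels, and 4 of them were above the overall shift. The nuclear poly(A) polymerase pla1 (TBIU010088) had 269.7 FPKM in the irradiated library and 165 FPKM in the control library, a log2 ratio of 0.71. Higher still were a gene matched to the cytoplasmic polymerase cid13 (TBIU018830), with 115 FPKM in the irradiated library and 36.6 FPKM in the control library (log2 ratio 1.63), and one matched to GLD2 (Papd4, TBIU013274), with 71.4 FPKM in the irradiated library and 32.2 FPKM in the control library (log2 ratio 1.12). A second cid13 gene (TBIU007684) had a log2 ratio of 0.12. The abundant poly(A)-binding protein PAB1 (TBIU011210) had 1290.3 FPKM in the irradiated library and 1322 FPKM in the control library.

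The 2 genes of the nuclear exoribonuclease RAT1, which degrades RNA from its 5' end, were both lower. The deeper one (TBIU020242) had 82.9 FPKM in the irradiated library and 126 FPKM in the control library, a log2 ratio of -0.60, and the thin one (TBIU058648) had 3.13 FPKM in the irradiated library and 8.92 FPKM in the control library. Of 6 RNA exosome genes 5 were above equal levels, among them rrp6 (TBIU026208), with 85.7 FPKM in the irradiated library and 62.2 FPKM in the control library. The export helicase SUB2 (TBIU014717), which works with the mlo3 type of adaptor, had 679 FPKM in the irradiated library and 672 FPKM in the control library, a log2 ratio of 0.02. DBP5 (TBIU000148), the helicase that frees mRNA from the receptor at the pore, had 178 FPKM in the irradiated library and 97.9 FPKM in the control library, a log2 ratio of 0.85. Of 11 nuclear pore genes 1 was at least 2-fold higher, NUP188 (TBIU025570, log2 ratio 1.14). At least 2-fold lower was 1, seh1-B (seh1l-b, TBIU011949, log2 ratio -1.08). Other genes matched to SEH1 were within 2-fold, with log2 ratios of 0.14 (TBIU007159) and -0.21 (TBIU010708).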

How the data were processed

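The data are 1 table of assembled transcripts from 2 libraries, 1 per group, which the column headers assign through the sample descriptions. Per the file headers, the authors gave FPKM per transcript to 2 decimals. Beside them the authors' deposited table lists a pair of scaled values (with no unit in its header), which behave as estimated reads divided by a factor per library, a log2 fold change made from that pair, and a p-value and q-value. Assembler, aligner, quantification tool and test: not given in the sources used here. This pair carries no sample name, was used as the authors' own comparison (the second over the first) and summed to 8404060 for the second and 8872430 for the first.

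FPKM of isoforms were added up by assembled gene, with a minimum of 100 scaled reads. Ratios used a pseudocount of 1 FPKM, which draws ratios of scarce genes toward 0. Intervals are exact Clopper-Pearson at 95%. Summing adds FPKM of isoforms of different length, so a short isoform with few reads can weigh heavily. Role classes followed text patterns, with 10 descriptions moved by hand. Genes were named if they were at least 2-fold apart, among the 10 most abundant, or among the 2 highest and 2 lowest of a class (all of a class under 5), which gave 40. Others are named beside them, chosen after their values were seen. The members, lists and rules were chosen with earlier results of these data known. The step that counts 2-fold genes was tested on simulated data. Python 3.11.15, pandas 2.3.3, scipy 1.17.1 and matplotlib 3.10.9 were used.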

Additional observations from a re-analysis of the deposited data

How the results depend on the processing

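The filter on low values moved the counts most. With no filter, 94 of 278 splicing and mRNA processing genes were higher by 2-fold or more and 61 lower, and 65 and 56 of the 199 neighbouring genes, while 32.7% of all genes were higher and 27.3% lower. From a mean of 1 FPKM the counts were 84 and 47 of 225 genes, with a median log2 ratio of 0.33, and 53 and 48 of 169 neighbouring genes, while 33.6% of all genes were higher and 27.1% lower, with a median of 0.17. From a mean of 10 FPKM, 6 of 71 genes were lower (all genes 12.1%), and 1 of 46 neighbouring genes was. Further settings were chosen after seeing the data. A minimum of 1000 scaled reads left 1 of 45 genes higher and 1 lower (all genes 6.53% and 7.13%). At that depth 1 of 28 neighbouring genes was lower. A minimum of 20 gave 5 lower of 60 neighbouring genes, while 11.7% of all genes were lower. With 1 gene per assembly component 1 of 61 genes was higher, while 9.32% of all genes, not reduced in this way, were higher. These settings test other genes by construction, and any further cause was not tested. A pseudocount of 5 FPKM, over the same genes, gave 1 lower of 45 neighbouring genes (all measured genes 6.50%), and the cause was not tested. Pseudocounts of 0.1 and 5 FPKM, median-centred ratios, the authors' scaled values, matching isoforms only and single isoforms kept the median of the 66 genes between 0.03 and 0.16 and at least 5 of the 6 calls. No paired analysis was possible because each group has 1 library, and for the same reason no replicate could be left out. Depth limits what the 212 thin genes can show.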
